A study of Mus musculus with 2 samples.

Results

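The let-7 family was examined through the 6 genes whose mature microRNA is encoded at a single locus: Mirlet7b, Mirlet7d, Mirlet7e, Mirlet7g, Mirlet7i and Mir98. They were taken by symbol, as let-7 loci without an identical second copy together with Mir98, from 2202 annotated microRNA genes, and all 6 were found. The other 6 let-7 genes (Mirlet7a-1, Mirlet7a-2, Mirlet7c-1, Mirlet7c-2, Mirlet7f-1 and Mirlet7f-2) encode mature strands that occur at more than 1 locus. Size-selected small RNA had been sequenced from total RNA of gastrocnemius, a calf muscle, taken at 14 days of age from females of the B6CASTF1/J strain, the first generation of a cross between C57BL/6J and CAST/EiJ; the labels name no treatment. There was 1 group with 2 biological replicates, so no contrast between conditions existed and levels are described. The labelled sample of replicate 1 names 3 females and that of replicate 2 a female in the singular; whether tissue was pooled is not stated, and both share 1 donor identifier. The SD values below therefore measure only the spread between these samples, which may be partly technical.

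let-7 microRNAs bind messenger RNAs through a short 5′ seed and lower their translation and stability. They accumulate as tissues mature and act against growth and stem cell genes such as Hmga2, Igf2bp1, Lin28 and the Ras genes. Lin28 proteins in turn hold back let-7 by binding the loop of its precursor, which then gains a U tail and is degraded. In skeletal muscle the balance of Lin28 and let-7 has been tied to insulin signalling.

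The 6 main strands are shown because their few differing bases are what let a read be given to 1 gene. Each is the 5′ arm of its hairpin, from RefSeq on GRCm38.p6, read 5′ to 3′, with the seed (bases 2 to 8) in capitals.
let-7g-5p: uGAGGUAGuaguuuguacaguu
let-7i-5p: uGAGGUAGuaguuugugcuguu
let-7b-5p: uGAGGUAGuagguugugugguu
let-7d-5p: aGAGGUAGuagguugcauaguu
let-7e-5p: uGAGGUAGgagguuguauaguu
miR-98-5p: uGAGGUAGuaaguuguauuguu

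All 6 carried the seed GAGGUAG, so they form 1 seed group. The strands are 22 nt long and differed among themselves at 8 positions, of which 7 lie outside bases 1 to 8. The remaining position is base 1, where let-7d-5p alone departs from the rest. Against let-7a-5p, the strand of the duplicated Mirlet7a genes, differing bases are shown next in capitals.
let-7a-5p, for comparison: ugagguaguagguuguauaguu
let-7g-5p against it: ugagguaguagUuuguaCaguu
let-7i-5p against it: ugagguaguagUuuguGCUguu
let-7b-5p against it: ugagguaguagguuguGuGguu
let-7d-5p against it: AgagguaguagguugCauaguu
let-7e-5p against it: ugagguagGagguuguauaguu
miR-98-5p against it: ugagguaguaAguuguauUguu

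Positions are counted from 1 at the 5′ end, with the let-7a base first. let-7e-5p differed by U9G alone, let-7d-5p by U1A and U16C, let-7b-5p by A17G and A19G, and miR-98-5p by G11A and A19U. let-7g-5p carried G12U and U18C, and let-7i-5p carried G12U, A17G, U18C and A19U. Within the 6, let-7g-5p and let-7i-5p were the closest pair, with 2 differing bases, the first at base 17. Among the main strands of the 12 let-7 genes, let-7e-5p lay 1 base from let-7a-5p. let-7b-5p lay 1 base from the let-7c-5p strand of Mirlet7c-1 and Mirlet7c-2. The other 4 members differed from their nearest relative in that list by 2 bases. The strands named let-7j and let-7k were left out of this comparison. Over their shared length, let-7j lies nearer to let-7i-5p than let-7g-5p does, differing from it within the seed.

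Uniqueness matters here because the read counts appear to leave out reads that align to several places. None of the 6 main strands, and none of their 6 partner strands from the 3′ arm, occurred whole in another gene among 141767 annotated transcripts of 55450 genes, searched on both strands and leaving out genes that overlap the member itself. The transcripts, not the genome, were searched. A read starting at the 5′ end was found nowhere else once it reached 14 nt for Mirlet7d and Mir98, and 17 nt for Mirlet7b, Mirlet7e, Mirlet7g and Mirlet7i. The longest stretch shared with another hairpin was 19 nt for Mirlet7g with Mirlet7i and for Mirlet7b with Mirlet7c-2. It was 17 nt for Mirlet7e with Mir7k and for Mir98 with Mirlet7b, and 14 nt for Mirlet7d. In each of the 6 duplicated genes the whole main strand was found in at least 1 other gene.

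Replicate 1 held 8002643 reads, of which 2672454 lay on microRNA genes on the gene's own strand, and replicate 2 held 12134412, of which 4292012 did. Levels are given as CPM, the depth-scaled read count, over those assigned reads, where 1 read is worth 0.374 CPM in replicate 1 and 0.233 CPM in replicate 2. Hairpin length does not enter, since a small RNA read covers a whole mature strand. Each count sums both arms of a hairpin. The muscle label was matched by Mir206, the muscle-restricted microRNA, at 89900 ± 7361 CPM (SD, n = 2), and all 6 muscle markers had reads in both replicates. The 6 neural markers had almost no assigned reads, with no read in replicate 1 and a summed 0.932 CPM in the other library. They are numbered copies of Mir9 and Mir124a, and a read that fits several copies would enter no gene. Their low counts therefore do not show that neural microRNAs were absent. Most markers of blood and liver were higher in replicate 1. The summed erythroid level was 437 against 185 CPM, and the hepatocyte marker Mir122 stood at 229 against 14.2 CPM. The 4 leukocyte genes summed to 1185 against 853 CPM, but Mir223 among them did not fall, at 120 against 124 CPM. The muscle markers did not move together. Their sum, nearly all Mir206, was 96313 CPM in replicate 1 against 85862 CPM in replicate 2. The ratio of replicate 2 over replicate 1 for Mir206 was 0.891 (95% counting interval 0.886 to 0.895). Mir1a-2 (0.693) and Mir486 (0.837) were also lower in replicate 2. Mir1a-2 is a numbered copy as well, so its value covers assigned reads only. Mir486 is not particular to muscle, as it is also made in erythroid cells. Mir208b (1.83, 1.56 to 2.14) and Mir499 (1.31, 1.19 to 1.45) were higher there. So was Mir133b (1.22), whose interval of 0.903 to 1.66 included 1. Other lists were not lower in replicate 2. The endothelial marker Mir126a, the gene of highest mean in assigned reads, had 118724 and 119268 CPM. The smooth muscle and fibroblast markers summed to 24273 and 25379 CPM, although Mir145a among them went from 757 to 717 CPM. The part of these differences in the let-7 values was not tested. In whole tissue, fewer cells of a type and less RNA per cell cannot be told apart.

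Together the 6 genes held 354768 reads, or 13.3% of assigned reads, in replicate 1 (exact 95% binomial interval 13.2 to 13.3) and 540153 reads, or 12.6%, in replicate 2 (12.6 to 12.6). These intervals cover counting error only. The mean was 12.9% ± 0.488 (SD, n = 2), and the gap between the libraries exceeded their counting intervals. Of the reads given to all 12 let-7 genes, the 6 members held 96.2% in replicate 1 and 96.5% in replicate 2. That share describes assigned reads, because a read of a duplicated strand that fits several loci would enter no gene. Reads aligned to several places numbered 11.9 per member read in replicate 1 and 11.8 in replicate 2, and how many are let-7 was not measured here.

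Mirlet7g (ENSMUSG00000065440.1), in an intron of Wdr82 on chromosome 9 (106178840 to 106178927, plus strand, mm10), had the highest mean. Its level was 52398 CPM in replicate 1 and 47950 CPM in replicate 2, a mean of 50174 ± 3145 CPM. Mirlet7i (ENSMUSG00000065406.3) followed at 47157 and 48108 CPM, a mean of 47633 ± 673 CPM. It lies on chromosome 10 (122985640 to 122985724, minus strand) within an exon of D630033A02Rik, which is annotated as a transcribed pseudogene. The 2 genes changed places between the libraries, with Mirlet7g 1.11 times Mirlet7i in replicate 1 and 0.997 times in replicate 2, so their order could not be set. By mean they held ranks 5 and 6 of 2202 genes. Ranks here and below count assigned reads only, so genes with copies elsewhere may stand lower than their microRNAs would.

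Mirlet7b (ENSMUSG00000065564.1) stood at 16788 CPM in replicate 1 and 15149 CPM in replicate 2, a mean of 15968 ± 1159 CPM and rank 14. It overlaps an exon of the noncoding gene Lncppara on chromosome 15 (85707319 to 85707403, plus strand). Mirlet7d (ENSMUSG00000065453.1) had 9955 and 8723 CPM, a mean of 9339 ± 871 CPM and rank 22. It overlaps an exon of the long noncoding gene 6720427I07Rik on chromosome 13 (48536012 to 48536114, minus strand). The values of these 2 genes did not overlap, and Mirlet7b was 1.69 times Mirlet7d in replicate 1 and 1.74 times in replicate 2. Mirlet7i exceeded Mirlet7b by 2.81-fold and 3.18-fold in the same order.

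The lowest levels belonged to Mirlet7e and Mir98. Mirlet7e (ENSMUSG00000105758.1), in an intron of Spaca6, a gene of sperm function, on chromosome 17 (17830352 to 17830444, plus strand), had 3469 and 3083 CPM, a mean of 3276 ± 273 CPM and rank 46. Mir98 (ENSMUSG00000065536.2), in an intron of the ubiquitin ligase gene Huwe1 on chromosome X (151913214 to 151913321, plus strand), had 2984 and 2837 CPM, a mean of 2910 ± 104 CPM and rank 49. Both values of Mirlet7e lay above both of Mir98, but by little: Mirlet7e was 1.16 times Mir98 in replicate 1 and 1.09 times in replicate 2. Mirlet7d exceeded Mirlet7e by 2.87-fold and 2.83-fold. Of the 5 neighbouring pairs in the order of means, 4 had values that did not overlap. From the highest mean to the lowest the 6 genes covered a 17.2-fold range.

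**Figure D1:**
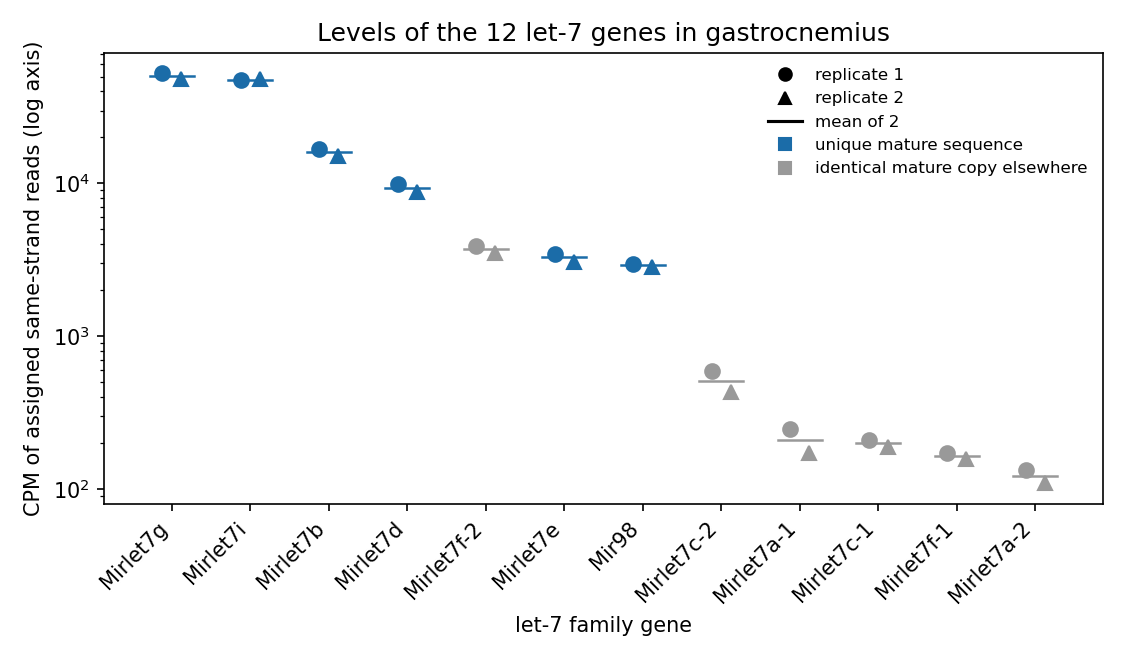
CPM of assigned same-strand reads on a log axis for the 12 let-7 genes in falling order of mean, with circles for replicate 1, triangles for replicate 2 and a bar at the mean. The 6 genes with a unique mature sequence (blue) have means from 2910 to 50174 CPM, and those with an identical copy elsewhere (grey) from 121 to 3710 CPM.

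The 6 genes with copies had a median mean level of 204 CPM, against 12654 CPM for the 6 members. The ranges overlapped at Mirlet7f-2, whose 3710 ± 268 CPM (3900 and 3521 CPM) stood above Mirlet7e and Mir98. Mirlet7c-2 followed at 509 ± 112 CPM and Mirlet7a-2 was lowest at 121 ± 16.7 CPM. The members were picked for being unique in sequence, which also decides which reads are assigned, so this gap cannot be told apart from reads lost to several loci.

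Shares among the 6 genes do not depend on the library total. Mirlet7g and Mirlet7i together made up 75.0% of the members' reads in replicate 1 and 76.3% in replicate 2. Mirlet7g held 39.5% and 38.1%, and Mirlet7i 35.5% and 38.2%. Mirlet7b held 12.3% ± 0.430 (SD, n = 2), Mirlet7d 7.22% ± 0.401, Mirlet7e 2.53% ± 0.116 and Mir98 2.25% ± 0.00447. Mirlet7i was the member whose share rose most from replicate 1 to replicate 2, by 0.11 on the log2 scale, while Mirlet7d moved by -0.11 and Mir98 by 0.004.

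**Figure D2:**
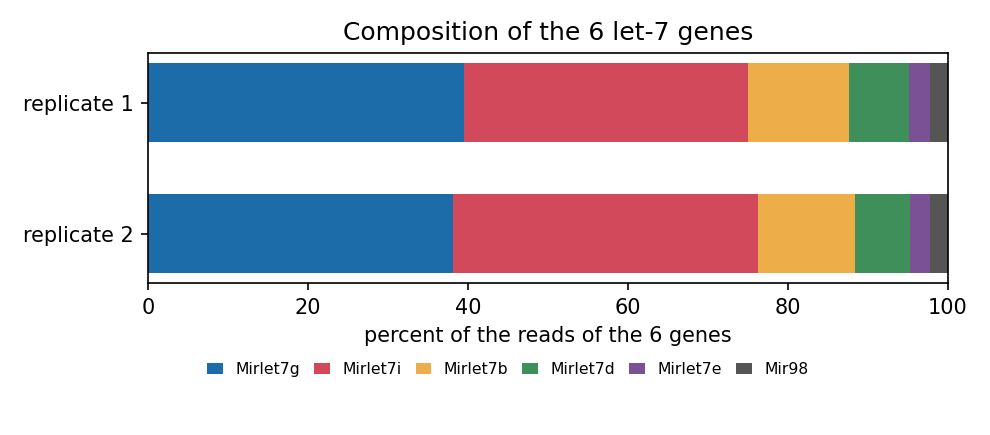
Percent of the reads of the 6 genes held by each gene, as stacked bars from 0 to 100 for each replicate. Mirlet7g and Mirlet7i fill 75.0% of the bar in replicate 1 and 76.3% in replicate 2, and Mir98 fills 2.25% of each.

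How far the libraries agreed was measured by the CPM ratio of replicate 2 over replicate 1, with an exact conditional binomial interval for counting error. The ratio was 0.915 for Mirlet7g (95% counting interval 0.909 to 0.921), 0.902 for Mirlet7b (0.892 to 0.913), 0.876 for Mirlet7d (0.863 to 0.890) and 0.889 for Mirlet7e (0.865 to 0.913). It was 0.951 for Mir98 (0.924 to 0.978) and 1.02 for Mirlet7i (1.01 to 1.03). So 5 of the 6 were lower in replicate 2, as were 49.4% of the 176 genes averaging at least 100 CPM, although Mir98 turned to 1.007 per total reads. Mirlet7i was slightly higher, but its ratio was 0.9998 with trimmed mean (TMM) scaling and 0.997 with unstranded counts. Each of the 6 intervals excluded 1, as did those of 73.9% of the 176, and 5 of 6 lay below 1 against 34.7% of the 176. Among the 49 genes at or above the mean level of Mir98, 95.9% of intervals excluded 1 and 40.8% lay below 1, and 40.8% of ratios were below 1. These ratios compare 2 libraries, not animals or conditions.

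No member passed the 1.2-fold limit used here, beside 31.2% of the 176 genes and 14.3% (7) of the 49 genes at or above the level of Mir98. Gaps between the replicates ran from 1.02-fold for Mirlet7i to 1.14-fold for Mirlet7d, beside a median of 1.12-fold over the 176. The coefficient of variation ran from 1.41% for Mirlet7i to 9.32% for Mirlet7d, beside a median of 8.20% over the 176 genes. The median log2 ratio was -0.14 for the members and 0.01 over the 176 genes. All 6 genes with copies were also lower in replicate 2, from a ratio of 0.699 for Mirlet7a-1 to 0.919 for Mirlet7f-1, whose interval of 0.815 to 1.04 included 1.

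**Figure D3:**
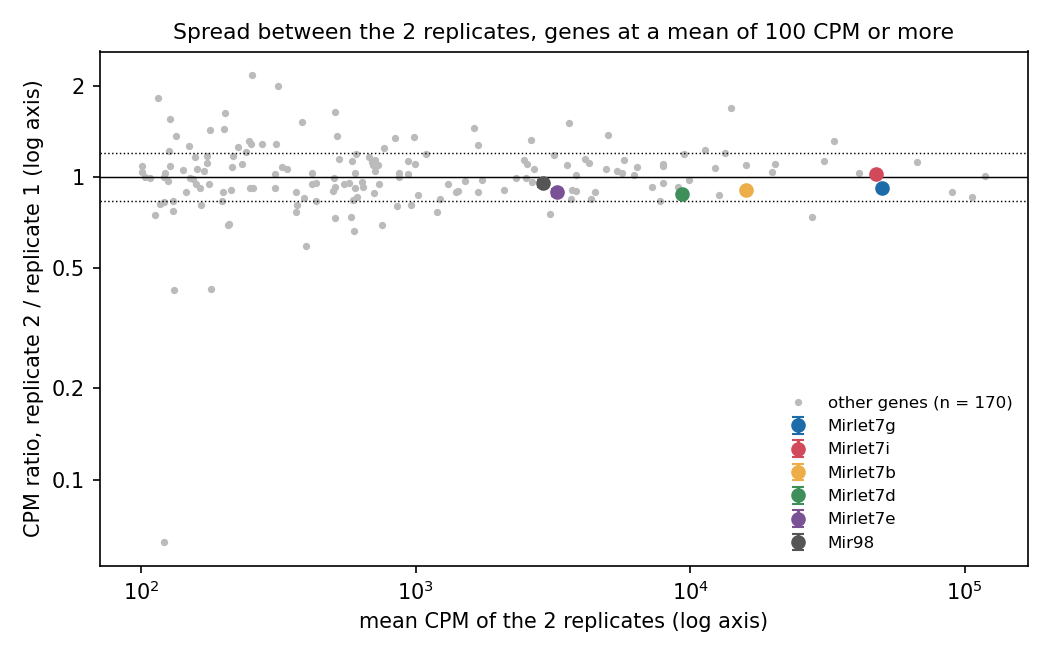
CPM ratio of replicate 2 over replicate 1 against mean CPM, both on log axes, for the 176 genes averaging at least 100 CPM; coloured points are the 6 genes, with 95% counting intervals narrower than the points, and dotted lines mark 1.2-fold. The 6 genes lie between 0.876 and 1.02, inside the dotted lines; the side of 1 on which Mirlet7i and Mir98 fall depends on the scaling.

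With 2 libraries, likeness between genes can be read only from level. Outside the let-7 genes, 10 genes stood next to a member in mean CPM. Among them, Mir127, Mir379, Mir381, Mir540 and Mir541 lie on the plus strand of chromosome 12, in the imprinted Dlk1-Dio3 domain. The share of this domain over all genes of such levels was not counted, so no particular likeness is drawn. Around the top pair stood Mir127 (66856 ± 5476 CPM), and Mir23b (41077 ± 948 CPM). Around Mirlet7b stood Mir379 (16014 ± 986 CPM) and Mir99a (14128 ± 5133 CPM), whose values of 10499 and 17758 CPM enclosed both of Mirlet7b. Mirlet7d lay between Mir322 (9510 ± 1184 CPM) and Mir541 (9057 ± 506 CPM), and its values overlapped those of both. Mirlet7e lay between Mir381 (3551 ± 229 CPM) and Mir540 (3203 ± 380 CPM), and Mir98 between Mir30e (3090 ± 618 CPM) and Mir652 (2699 ± 109 CPM). Mirlet7e overlapped both of its neighbours, and Mir98 overlapped Mir30e but not Mir652.

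Of the 6 genes, 4 lie within 10 kb of another microRNA gene on the same strand, where a shared primary transcript is common for this family. Mirlet7g and Mirlet7i have no such partner. Mirlet7b lies 621 bp from Mirlet7c-2 and exceeded it 28.5-fold in replicate 1 (16788 against 588 CPM) and 35.3-fold in replicate 2 (15149 against 430 CPM). Mirlet7d shares its locus with Mirlet7f-1, 1714 bp away, and Mirlet7a-1, 2064 bp away. It exceeded Mirlet7f-1 58.1-fold and 55.4-fold, and Mirlet7a-1 40.6-fold and 50.9-fold, in replicates 1 and 2. All 3 of these partners have identical copies elsewhere, so these folds compare assigned reads only.

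Mirlet7e sits between microRNAs with other seeds, Mir99b 94 bp before it and Mir125a 367 bp after it. Mir99b was higher than Mirlet7e, 1.55-fold in replicate 1 (5362 against 3469 CPM) and 1.97-fold in replicate 2 (6088 against 3083 CPM). Mir125a stood at 3818 and 3878 CPM, and Mirlet7e was 0.909 times that in replicate 1 and 0.795 times in replicate 2. The order within this cluster was thus the same in both libraries. Their ratios of replicate 2 over replicate 1 differed beyond counting error, at 1.14 for Mir99b (1.11 to 1.16) and 1.02 for Mir125a (0.991 to 1.04) beside 0.889 for Mirlet7e. On the X chromosome, Mir98 lies 785 bp from Mirlet7f-2, which exceeded it by 1.31-fold and 1.24-fold although its main strand has a second copy. Both were lower in replicate 2, with a ratio of 0.903 for Mirlet7f-2 (0.881 to 0.926).

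**Figure D4:**
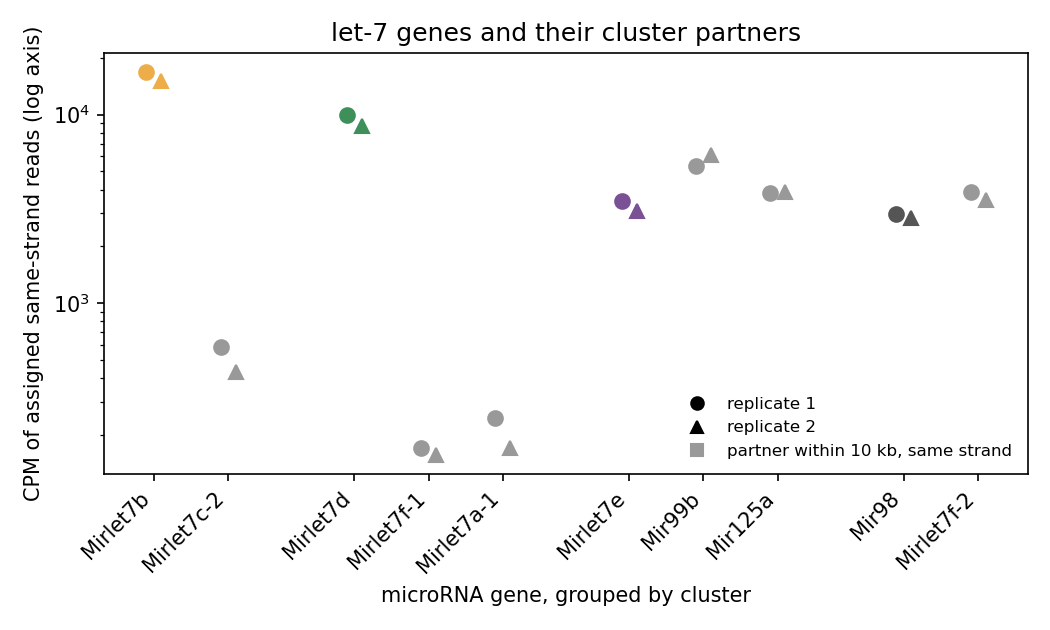
CPM of assigned same-strand reads on a log axis for the 4 genes with microRNA partners within 10 kb on the same strand, grouped by cluster, with circles for replicate 1 and triangles for replicate 2; partners are grey. Mirlet7b and Mirlet7d stand at least 28.5-fold above their partners, whereas Mirlet7e and Mir98 lie below theirs.

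Strand handling decided whether Mirlet7e was measured at all. An annotated microRNA gene, Gm25927, covers the same interval on the opposite strand. In the column of counts made without regard to strand, Mirlet7e had 0 reads in both replicates, whereas the same-strand column held 9272 and 13232. Those same numbers, 9272 and 13232, stood in the opposite-strand column of Gm25927, which had 0 reads on its own strand. Among the genes with copies, Mirlet7f-1 likewise went from 458 and 676 reads to 0. Mirlet7d, Mirlet7g, Mirlet7i and Mir98 had equal counts in both columns, and Mirlet7b differed by 2 and 6 reads.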

How the data were processed

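Small RNA was sequenced in 2 samples of 1 group. Each deposited file holds unnormalized counts of reads by microRNA gene on mm10 with GENCODE M21, per the labels and the text deposited with the files. Which aligner or counter was used is not given in the sources used. The 3 count columns were taken, from their order, as unstranded, same-strand and opposite-strand, and the same-strand column was used. The layout is that of STAR gene counts, which gives no gene a read that maps to more than 1 place. The 4 lines that name no gene held 66.6% and 64.6% of reads and stayed out of totals. All 2202 identifiers matched GENCODE M21. Positions are mm10, and sequences come from RefSeq (GRCm38.p6, the same assembly).

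CPM, shares with exact 95% intervals and ratios were computed in Python 3.11.15 (scipy 1.17.1). The interval code was tested on simulated data. Background counts used genes averaging at least 100 CPM. TMM factors (edgeR 4.0.16) and DESeq2 1.42.0 size factors were alternatives, with other strands, denominators, thresholds and each replicate alone. Named genes were the 6 members, the other let-7 genes, microRNA genes within 10 kb on the same strand, genes sharing bases 2 to 8, listed cluster partners and markers, hosts, and the genes next in mean CPM. Members and lists were chosen with earlier results of these data known. With 1 group, no test between conditions was possible and no p-value was computed. The hairpin loops are not reported here.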

Additional observations from a re-analysis of the deposited data

Results flagged for a closer look

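Mirlet7b was the member with reads on the opposite strand, which the levels above do not use. It had 6 such reads in replicate 2, above the limit of 3 reads, and 2 in replicate 1, beside 65020 and 44864 on its own strand. The other 5 members had 0 opposite-strand reads in both replicates. No annotated gene lies opposite Mirlet7b. The cause was not tested.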

How the results depend on the processing

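The summed share of the 6 members was 12.9% and moved by construction with the denominator: to 17.0% with unstranded counts, whose total is smaller and in which Mirlet7e is at 0, to 4.44% of all reads, and to 14.9 per 100 reads of the other genes. The ratio of replicate 2 over replicate 1 turned for Mirlet7i, to 0.997 with unstranded counts and 0.9998 with TMM factors, and for Mir98, to 1.007 with all reads as the denominator. With a 1.1-fold limit 3 of 6 members were apart, beside 61.4% of 176 genes, against 0 at 1.2-fold. Intervals excluded 1 for 5 of 6 members with TMM (78.4% of 176 genes), 6 of 6 with DESeq2 (77.3% of 176) and 4 of 5 with unstranded counts (77.8% of 167), where Mirlet7e gave none. Over all genes, 55 of 176 were more than 1.2-fold apart, 7 of 49 at or above the level of Mir98 (chosen after seeing the data), 92 of 260 when the minimum was 10 CPM and 297 of 496 with a read in both replicates. With 2 samples no outlier check was possible, and depth limited Mirlet7f-1, whose ratio could not be told from 1.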

Other observations

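Other genes that carry let-7 names or seeds had few or no reads. Mir7j, the gene of let-7j, had 24.3 and 32.6 CPM, and its strand has another seed, shown in capitals with that of miR-202-3p.
let-7j: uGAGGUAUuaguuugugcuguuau
miR-202-3p: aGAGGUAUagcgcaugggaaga

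Both read GAGGUAU at bases 2 to 8, and Mir202 had 0 reads in each replicate. Mir7k and Mir1961, which have the let-7 seed GAGGUAG, also had 0 reads, which allows up to 1.12 CPM in replicate 1 and 0.699 CPM in replicate 2.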
